A study of Mus musculus with 31 samples.

Results

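The livers of mice given lipopolysaccharide (LPS) together with modified intravenous immunoglobulin (modIVIg) were compared with the livers of mice given LPS and vehicle, on 8 of the 31 arrays of the study. All probes whose signal stood above the negative control beads, at a detection p under 0.01 on at least 4 of the 12 liver arrays, were taken, which kept 9114 of the 25697 probes on the Illumina mouse BeadChip. The rule counts detection over all groups together, so a probe can be kept through the arrays of 1 group alone. Of the kept probes 8582 carried a gene symbol, and with the brightest probe standing for each gene they gave 7155 features, 6623 of them named genes.

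All animals were male C57BL/6J mice, 20 to 30 weeks old, and all of them received LPS in vivo, the vehicle controls included. The groups were LPS with modIVIg, LPS with IVIg and LPS with vehicle, with 4 liver arrays each. The labels do not describe the modification of the immunoglobulin, the doses, the interval before the liver was taken or the content of the vehicle, and no mouse without LPS was measured. Nothing in the labels ties the arrays to separate animals, and the p-values measure only the spread between these samples.

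LPS, a component of the outer membrane of Gram-negative bacteria, is sensed by Toll-like receptor 4. One arm of that receptor runs through the adaptor MyD88 to NF-kB and inflammatory cytokines, and the other through TRIF and the IRF transcription factors to type I interferon, which induces antiviral genes in neighbouring cells. In the liver, Kupffer cells (the resident macrophages) and the sinusoidal endothelium clear endotoxin from portal blood, while hepatocytes turn to making acute phase proteins, a load carried by the folding machinery of the endoplasmic reticulum (ER). IVIg is pooled human IgG used as replacement and as an anti-inflammatory treatment. The comparison addresses how livers given LPS with modIVIg differ from livers given LPS with vehicle. Without mice free of LPS, an altered response to LPS cannot be told apart from other effects of the preparation.

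Between 31.6% and 35.3% of the probes were detected on each liver array. Precision is set by the 4 arrays of each group. Of 13 hepatocyte markers on the array all 13 were kept and 0 passed the test described below. Ttr (transthyretin), for example, lay at a log2 signal of 15.64, 15.68, 15.72 and 15.70 on the modIVIg arrays and of 15.70, 15.74, 15.66 and 15.73 on the vehicle arrays, near the top of the scale at 15.84. Of the markers of B and plasma cells, dendritic cells and mast cells, 0 of 9, 0 of 10 and 0 of 7 on the array were kept. The third IVIg array stood apart from its own group, with a mean correlation of 0.937 with the other IVIg arrays against 0.958 to 0.969 for those. It takes no part in the difference between the modIVIg and vehicle means, but it does in the normalisation, the detection rule, the choice of probe per gene and the shared estimate of the spread. Values without it, below, repeat the fit with the probes and normalised values kept.

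Of the 7155 features, 352 passed a Benjamini-Hochberg adjusted p of 0.05 in limma, which is 4.92% of those tested. In the modIVIg livers 141 features rose (1.97%) and 211 fell (2.95%). Under scaling to a common 75th percentile in place of quantile normalisation the split was 102 higher and 271 lower. With array quality weights, which called 1112 features, it was 585 higher and 527 lower. The falls were larger: their median log2 change was −1.03 against 0.71 for the rises, and 111 fell at least 2-fold while 38 rose that much. The median over all features was 0.04, and 44.9% of all features were lower by any amount. Of the rises 17 had fewer than 4 detections outside the modIVIg arrays, and 14 of the falls fewer than 4 outside the vehicle arrays, so the rule kept these features through the group where they are high. On 348 of the 352 the modIVIg arrays lay wholly above or wholly below the vehicle arrays, a separation seen in 19.8% of all features (11.3% above and 8.54% below). The arrays measured whole tissue, so fewer cells of a type and less RNA per cell cannot be told apart.

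The count depended on single arrays, and so did those of most gene lists below, which are to be read against the 1.97% of all features that rose and the 2.95% that fell. It lay between 84, without modIVIg array 1 or without vehicle array 2, and 812, without IVIg array 3. For 78 of the called genes the array carried 103 further kept probes, and all 103 changed in the same direction as the probe chosen, 50 of them past the threshold.

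The promoters below belong to genes that passed the test and hold a motif searched for in their gene group. They are shown because the largest groups of called genes, the interferon-induced genes that fell and the ER folding genes that rose, are the ones with described promoter elements. Each runs from 250 bases before to 50 bases after the transcription start of RefSeq (build GRCm38.p6), 5′ to 3′ on the strand of the gene, and the capitals mark the motif. In the first group it is the core of the interferon-stimulated response element, GAAA followed by any 2 bases and GAAA, on either strand.
Rsad2, chr12:26456403-26456702, minus strand: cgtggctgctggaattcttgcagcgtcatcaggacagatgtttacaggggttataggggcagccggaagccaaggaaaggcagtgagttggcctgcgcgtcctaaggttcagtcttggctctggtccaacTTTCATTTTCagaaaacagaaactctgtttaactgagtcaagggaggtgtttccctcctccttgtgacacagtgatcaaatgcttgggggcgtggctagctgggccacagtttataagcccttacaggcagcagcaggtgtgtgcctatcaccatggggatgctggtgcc
Phf11a, chr14:59297473-59297772, minus strand: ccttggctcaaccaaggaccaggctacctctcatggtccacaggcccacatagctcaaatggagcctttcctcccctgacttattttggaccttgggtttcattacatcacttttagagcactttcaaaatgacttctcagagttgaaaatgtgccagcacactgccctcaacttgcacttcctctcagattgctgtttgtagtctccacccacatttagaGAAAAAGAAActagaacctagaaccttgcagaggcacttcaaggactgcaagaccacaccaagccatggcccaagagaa
Ifit3, chr19:34583279-34583578, plus strand: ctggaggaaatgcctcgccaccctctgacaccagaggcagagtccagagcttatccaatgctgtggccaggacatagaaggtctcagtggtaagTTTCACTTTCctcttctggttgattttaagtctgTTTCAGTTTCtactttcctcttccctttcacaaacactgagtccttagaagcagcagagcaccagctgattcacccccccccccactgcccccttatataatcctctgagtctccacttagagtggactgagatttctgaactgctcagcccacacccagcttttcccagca
In the second group it is the ER stress element, CCAAT followed by any 9 bases and CCACG, on either strand.
Creld2, chr15:88819396-88819695, plus strand: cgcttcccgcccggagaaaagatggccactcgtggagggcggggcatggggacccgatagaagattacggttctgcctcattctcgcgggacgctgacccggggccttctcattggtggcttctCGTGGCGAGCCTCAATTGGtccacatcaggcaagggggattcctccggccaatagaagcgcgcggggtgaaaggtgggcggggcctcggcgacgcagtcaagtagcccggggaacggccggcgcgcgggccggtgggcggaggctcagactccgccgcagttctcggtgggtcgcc
Hsp90b1, chr10:86705395-86705694, minus strand: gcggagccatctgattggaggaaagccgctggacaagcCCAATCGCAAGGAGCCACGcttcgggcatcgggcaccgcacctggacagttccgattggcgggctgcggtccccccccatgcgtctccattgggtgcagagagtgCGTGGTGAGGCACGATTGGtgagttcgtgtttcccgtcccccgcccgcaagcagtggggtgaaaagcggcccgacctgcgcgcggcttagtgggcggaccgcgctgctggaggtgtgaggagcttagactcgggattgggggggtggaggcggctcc
Syvn1, chr19:6046326-6046625, plus strand: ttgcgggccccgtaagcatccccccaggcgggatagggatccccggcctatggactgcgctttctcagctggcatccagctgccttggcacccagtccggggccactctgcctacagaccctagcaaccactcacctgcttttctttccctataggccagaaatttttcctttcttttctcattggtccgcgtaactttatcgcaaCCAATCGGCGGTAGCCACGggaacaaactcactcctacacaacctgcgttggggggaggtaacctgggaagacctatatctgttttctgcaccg
Dnajc3, chr14:118937682-118937981, plus strand: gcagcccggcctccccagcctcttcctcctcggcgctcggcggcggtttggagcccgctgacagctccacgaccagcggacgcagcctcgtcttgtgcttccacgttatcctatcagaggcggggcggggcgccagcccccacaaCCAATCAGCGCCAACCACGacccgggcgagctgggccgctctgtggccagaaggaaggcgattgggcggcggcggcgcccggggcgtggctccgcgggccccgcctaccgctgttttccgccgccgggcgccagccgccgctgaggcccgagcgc
Counted from the transcription start, the match in Phf11a begins at −29 and the one in Rsad2 at −120, and Ifit3 holds a pair of matches. A match is a description of the letters in this window and not evidence that a factor binds there.

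The interferon core was found in 3.44% of all 32851 promoters of this length, and in 3.99% of genes when a match in any promoter of a gene counts. It was found in 9 of the 21 tested interferon effector genes with a promoter in the table (42.9%), and in 3 of the 8 that were called. The promoter of Isg15, which was not called, holds the core as well. Over the whole liver comparison 14 of 162 called genes that fell had it (8.64%), against 2 of 109 that rose (1.83%) and 4.06% of all tested genes. The ER stress element occurred in 0.119% of all promoters and in 0.22% of tested genes. It was present in 8 of 24 tested ER chaperone genes (33.3%), among them Hspa5 and Calr, and in 4 of the 9 called. The amino acid response element TGATGNAA (3.97% of promoters, 2.86% of tested genes) was in 6 of 21 genes of the integrated stress response list, Asns and Nupr1 among them. It was also in 4 of 21 tested interferon effectors (19%). The unfolded protein element TGACGTGG (0.676% of promoters, 1.1% of tested genes) was in 1 of the 24 chaperone genes. The D-box TTANGTAA (2.32% of promoters, 1.89% of tested genes), which clock-controlled PAR-domain factors bind, was in 0 of 16 tested clock genes.

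Upp2, a liver uridine phosphorylase that splits uridine into uracil and ribose phosphate, fell most. Its log2 signals were 7.31, 8.97, 8.09 and 7.97 on the modIVIg arrays, 10.99, 11.38, 10.40 and 9.35 on the IVIg arrays, and 10.53, 12.54, 10.87 and 11.08 on the vehicle arrays. The modIVIg arrays lay below every array of both other groups. The log2 change against vehicle was −3.17 ± 0.50 (SE from the shared spread, 4 arrays per group, adjusted p = 0.00867). The 3 further probes gave −2.49, −2.98 and −2.84.

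Rgs16, a regulator of G protein signalling whose liver transcript follows feeding and the clock, had log2 signals of 8.20, 7.79, 6.49 and 6.34 on the modIVIg arrays and 9.42, 11.33, 10.38 and 9.03 on the vehicle arrays. The groups did not overlap, and the log2 change was −2.83 ± 0.63 (adjusted p = 0.0282). Btc encodes betacellulin, a ligand of the EGF receptor. It lay at 6.61, 6.77, 5.77 and 5.81 with modIVIg, where only 2 of 4 arrays detected it, and at 8.51, 9.99, 8.70 and 8.80 with vehicle (−2.76 ± 0.56, adjusted p = 0.0214). Adm encodes adrenomedullin, a vasodilator peptide induced in sepsis. Its signals were 6.24, 6.11, 7.20 and 6.09 with modIVIg, where only 2 of 4 arrays detected it, and 8.88, 10.45, 8.54 and 8.02 with vehicle. The log2 change was −2.56 ± 0.62 (adjusted p = 0.0379). The third modIVIg array was the highest of its group for Adm and still below each vehicle array.

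Among the further large falls, Keg1, a glycine N-acyltransferase-like gene of liver and kidney, was at 7.37, 7.62, 8.62 and 7.60 with modIVIg against 10.49, 11.26, 9.50 and 9.61 with vehicle (−2.41 ± 0.44, adjusted p = 0.014). Slc2a2, the glucose transporter GLUT2 of hepatocytes, lay at 7.44, 8.0, 7.53 and 7.64 against 9.12, 11.10, 9.88 and 10.03 (−2.38 ± 0.40, adjusted p = 0.00999). In both genes the modIVIg arrays formed a group below all vehicle arrays. Hsd3b5, a male-biased steroid reductase, fell by 2.35 ± 0.51, and Hpgd, which inactivates prostaglandins, fell by 2.35 ± 0.49. Gm4952, another glycine N-acyltransferase-like gene, fell by 2.11 ± 0.44 and was detected on only 2 of 4 modIVIg arrays. Defb1 encodes beta-defensin 1, an antimicrobial peptide of epithelia. It was detected on 0 of 4 modIVIg arrays, where its measured mean was 5.86, and on all 4 vehicle arrays at a mean of 7.81. It was therefore at least 2.89-fold lower with modIVIg (adjusted p = 0.00212). For a gene detected on no array of a group, such a bound sets the mean of the detected group against the lowest signal of any detected probe on each array of the other group, or the gene's own signal where higher.

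Among the rises, Rnf138rt1 led with 8.65, 8.48, 8.17 and 9.38 on the modIVIg arrays and 6.40, 6.48, 6.67 and 6.65 on the vehicle arrays. Its log2 change was 2.12 ± 0.24 (adjusted p = 0.00136). It is a retrotransposed copy of the ubiquitin ligase gene Rnf138, and a probe may not tell such a copy from its parent. Gtf2ird1, a transcription factor of the TFII-I family, was at 8.57, 8.09, 8.38 and 8.42 with modIVIg and at 6.85, 6.53, 7.09 and 6.88 with vehicle (1.53 ± 0.18, adjusted p = 0.00172). The modIVIg arrays of both genes were above every vehicle array, with a gap wider than the range of either group in Gtf2ird1.

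Stbd1, which tethers glycogen to membranes, rose by 1.64 ± 0.41, and Plpp5, a lipid phosphate phosphatase, rose by 1.54 ± 0.30. Nupr1, a small stress-induced chromatin protein, lay at 9.02, 9.94, 9.15 and 9.75 with modIVIg and at 8.05, 8.07, 8.07 and 8.36 with vehicle (1.33 ± 0.27, adjusted p = 0.0219). The groups did not overlap. Other leading rises were Tceal9 (1.31 ± 0.22), E2f6, a transcriptional repressor of the E2F family (1.25 ± 0.28), Sowahb (1.25 ± 0.23), Ung, the uracil-DNA glycosylase (1.24 ± 0.21), and Slc30a1, the zinc exporter of the plasma membrane (1.23 ± 0.28).

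Foxa1, a pioneer transcription factor of the liver, and L3mbtl3, a methyl-lysine reader, were detected on 3 and 4 of 4 modIVIg arrays, 1 of 4 IVIg arrays each and 0 of 4 vehicle arrays. Both were kept through the modIVIg arrays, where they are high. Foxa1 averaged 6.52 with modIVIg and 5.04 with vehicle, where it was not well above background, and was at least 1.09-fold higher with modIVIg (adjusted p = 0.0379). L3mbtl3 averaged 6.71 and 5.41, at least 1.24-fold higher with modIVIg (adjusted p = 0.0493). The 30 leading genes are the 15 largest falls and 15 largest rises among called genes with a symbol and groups that did not overlap. Of these, 10 passed the threshold in all 26 alternative settings: Upp2, Keg1, Slc2a2, Phf11a, Gtf2ird1, Creld2, Pdia4, Tubb5, Tceal9 and Ung. Defb1 and Rnf138rt1 passed in the 25 that tested them and were left untested where detection on all 12 arrays was required.

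**Figure D1:**
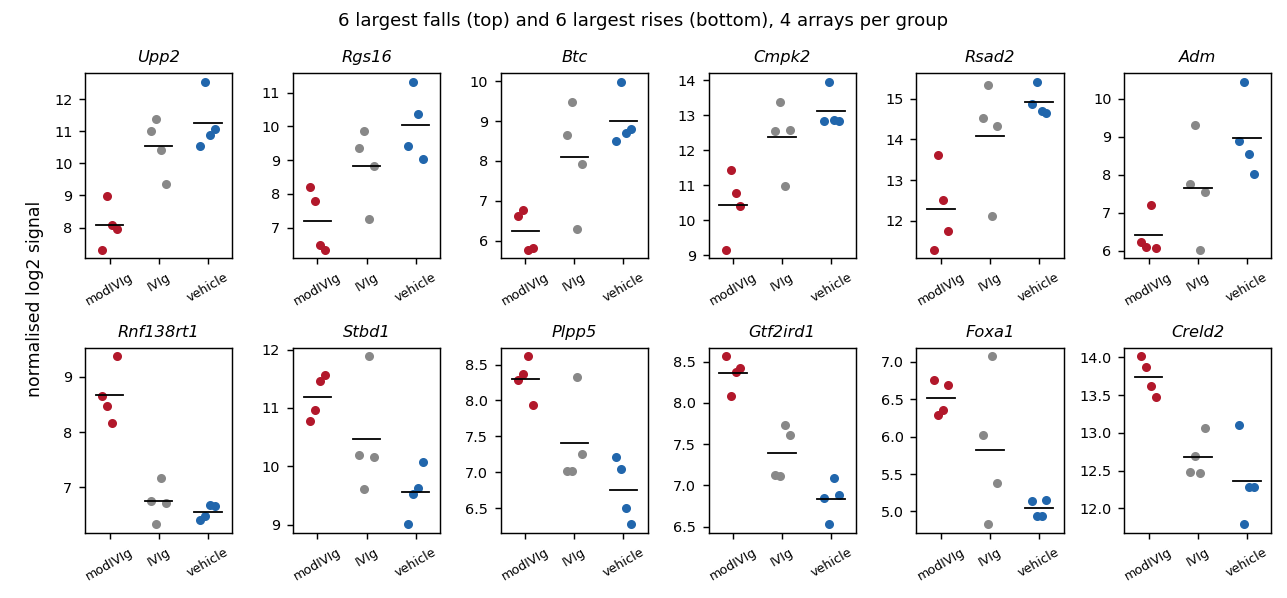
Normalised log2 signal of the 6 genes that fell most (top) and the 6 that rose most (bottom) on the 4 liver arrays of each group (points) with the group mean (line). The modIVIg points lie wholly below or above the vehicle points in each panel, while IVIg points can reach into both, such as Rsad2 at 12.12 on IVIg array 3 and 15.34 on IVIg array 2.

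Among interferon-induced effector genes, the calls in the modIVIg livers were all falls. Of 32 tested, 11 fell and 0 rose in limma, where 2.95% of all features fell, 28 of the 32 were lower by any amount, and the median log2 change was −0.56. Rsad2 encodes viperin, a radical SAM enzyme that makes a chain-terminating nucleotide. It had log2 signals of 11.29, 13.61, 12.52 and 11.75 on the modIVIg arrays, 14.52, 15.34, 12.12 and 14.34 on the IVIg arrays, and 14.88, 15.42, 14.69 and 14.66 on the vehicle arrays (−2.62 ± 0.61 against vehicle, adjusted p = 0.0341). Every modIVIg array was below every vehicle array, and IVIg array 3 lay among the modIVIg arrays. Cmpk2, the mitochondrial nucleotide kinase encoded beside Rsad2, lay at 9.16, 11.44, 10.77 and 10.41 with modIVIg and at 12.84, 13.96, 12.87 and 12.84 with vehicle (−2.68 ± 0.52, adjusted p = 0.0187).

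Phf11a, an interferon-induced PHD finger gene, was more even within its groups. It was at 7.37, 7.47, 7.73 and 8.24 with modIVIg and at 9.28, 10.31, 9.45 and 9.74 with vehicle (−1.99 ± 0.27, adjusted p = 0.00441), and a further probe gave −1.98. Its neighbour Phf11d fell by 1.33 ± 0.31, and a further probe gave −1.32 without passing (adjusted p = 0.0973). Ifit2 and Ifit3, tetratricopeptide proteins that act on viral RNA and its translation, had log2 changes of −2.11 ± 0.42 and −1.20 ± 0.23 and both passed. Ifit3 was bright in all groups, with 13.47, 14.52, 13.84 and 14.14 on the modIVIg arrays and 15.26, 15.56, 15.03 and 14.93 on the vehicle arrays, and still did not overlap.

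Usp18, the protease that removes ISG15 and dampens interferon receptor signalling, was at 11.96, 13.31, 12.79 and 12.72 with modIVIg and at 14.59, 15.04, 14.50 and 14.54 with vehicle (−1.97 ± 0.39, adjusted p = 0.0203). Oasl1, an oligoadenylate synthetase-like inhibitor of Irf7 translation, fell by 1.94 ± 0.34. Tor3a (−1.55 ± 0.37), the exonuclease gene Isg20 (−1.49 ± 0.35) and the oligoadenylate synthetase gene Oas2 (−1.01 ± 0.25) were the other members to fall. A further Tor3a probe gave −1.18 without passing (adjusted p = 0.105). The first modIVIg array was the lowest of its group for Cmpk2, Rsad2, Ifit2, Ifit3, Usp18, Oasl1, Isg20, Tor3a and Oas2.

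Not all interferon-induced genes passed. Mx1 was at 6.15, 8.21, 7.87 and 7.57 with modIVIg and at 8.80, 10.97, 9.20 and 9.40 with vehicle, without overlap and without passing (−2.14 ± 0.60, adjusted p = 0.0577). Trim30a (−0.97, adjusted p = 0.0553), the kinase gene Eif2ak2 (−1.04, adjusted p = 0.088) and the ubiquitin-like modifier gene Isg15 (−0.35, adjusted p = 0.224) did not pass either. Among 21 genes of interferon sensing and transcription 2 fell (9.52%, against 2.95% of all features). These were Ddx58, which encodes the RNA sensor RIG-I (−1.37 ± 0.35, adjusted p = 0.044), and Dhx58, which encodes its relative LGP2 (−0.95 ± 0.21, adjusted p = 0.0288). Between 0 and 4 of the 21 passed when single arrays were left out. Irf7, the transcription factor that amplifies interferon production, was at −0.28 (adjusted p = 0.327).

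The 24 genes of the interferon-gamma type, such as the guanylate-binding GTPases and the class I antigen loading genes, had a median log2 change of −0.09. None of the 24 passed in limma, in which 1755 of the 7155 features had an unadjusted p under 0.05 and 11 interferon effectors passed. A test of the difference between the 2 lists was not run. The interferon effector count lay between 2 and 15 when single arrays were left out, with 2 without vehicle array 2 and 15 without IVIg array 3, and the list's median stayed between −0.64 and −0.45. The mean over the 32 effectors, as a log2 deviation from the vehicle mean, was −1.37, −0.66, −0.83 and −0.81 on the modIVIg arrays, −0.18, 0.10, −0.89 and −0.16 on the IVIg arrays, and −0.12, 0.24, −0.08 and −0.04 on the vehicle arrays.

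Among ER chaperones and folding enzymes, the calls were all rises. Of 27 tested, 9 rose and 0 fell (33.3% called, against 1.97% of all features that rose), 22 of the 27 were higher by any amount, and the median was 0.56. Creld2, a disulfide isomerase induced by misfolded protein, lay at 14.02, 13.87, 13.62 and 13.47 on the modIVIg arrays, 12.48, 12.69, 12.47 and 13.07 on the IVIg arrays, and 13.11, 11.79, 12.28 and 12.28 on the vehicle arrays (1.38 ± 0.25 against vehicle, adjusted p = 0.0136). Pdia4, another disulfide isomerase, was at 13.06, 12.85, 12.34 and 12.43 with modIVIg and at 11.65, 10.99, 11.44 and 11.28 with vehicle (1.33 ± 0.21, adjusted p = 0.00879). In both genes the modIVIg arrays were above all arrays of the other groups.

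Hsp90b1 (GRP94), the HSP90 of the ER, was at 15.28, 14.92, 14.89 and 15.10 with modIVIg and at 14.61, 13.92, 14.23 and 14.40 with vehicle, close to the top of the scale (0.76 ± 0.16, adjusted p = 0.023). Fkbp11, a prolyl isomerase of secretory cells, rose by 1.10 ± 0.28, and Pdia3, the isomerase that works with calnexin on glycoproteins, rose by 0.62 ± 0.11. Dnajc3, a J-protein of the ER, rose by 0.62 ± 0.15. Syvn1 (HRD1) and Sel1l form the ligase complex that sends misfolded proteins out for degradation, and they rose by 0.70 ± 0.18 and 0.56 ± 0.14. A further Sel1l probe gave 0.68 without passing (adjusted p = 0.0934). Selenok, a selenoprotein of the ER membrane, rose by 0.54 ± 0.14 and was the last to pass (adjusted p = 0.0499).

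Hspa5, the chaperone BiP that restrains the ER stress sensors, was at 10.86, 11.29, 11.14 and 10.68 with modIVIg and at 10.39, 10.33, 10.45 and 10.50 with vehicle. Its groups did not overlap, and it did not pass (0.58 ± 0.18, adjusted p = 0.0846). Hyou1 (1.15, adjusted p = 0.0619), Calr (0.68, adjusted p = 0.0962) and Manf (0.76, adjusted p = 0.0573, detected on 0 of 4 vehicle arrays) did not pass. Xbp1, the transcription factor spliced on ER stress, was at 0.09 (adjusted p = 0.686), and the probe gives no splicing. When single arrays were left out, between 3 and 12 members passed, 3 without modIVIg array 1 or vehicle array 2 or 3 and 12 without IVIg array 3, with medians of 0.49 to 0.64.

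**Figure D2:**
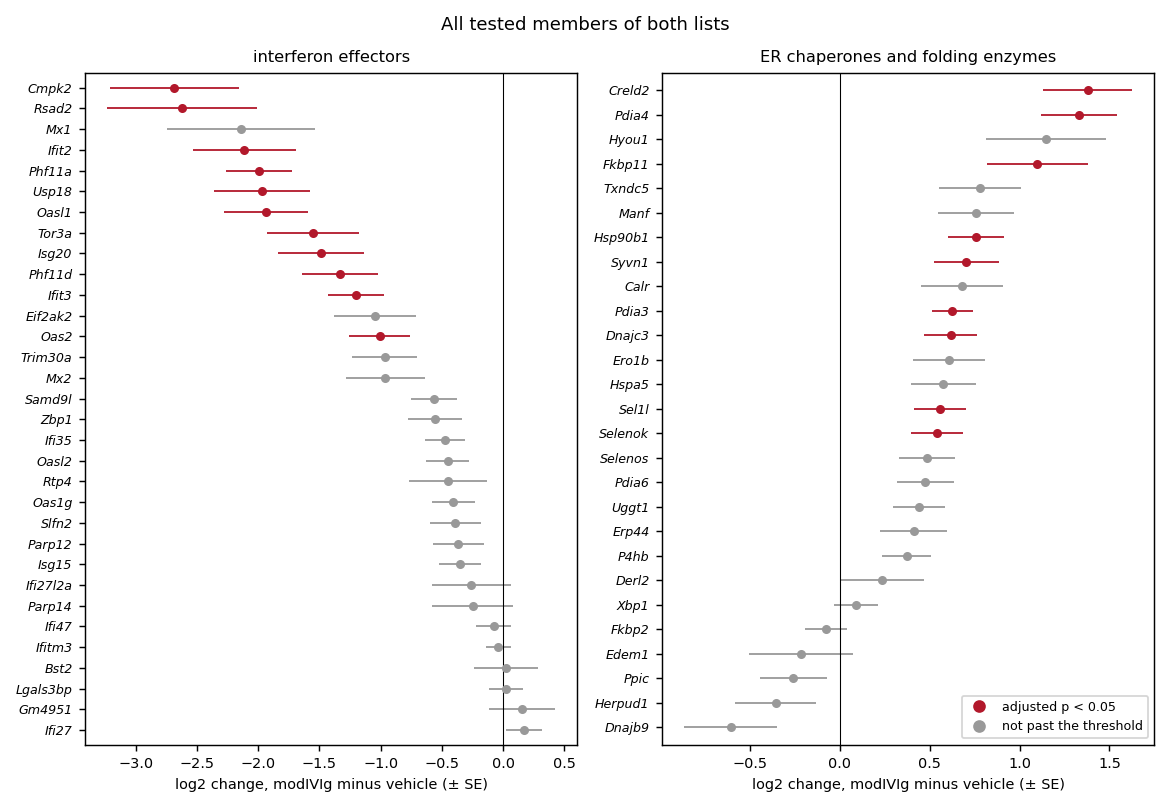
Log2 change, modIVIg minus vehicle, with its SE for all 32 tested interferon effectors (left) and all 27 tested ER chaperones and folding enzymes (right); red points passed an adjusted p of 0.05. The 11 effectors that passed lie between −2.68 and −1.01 and the 9 chaperones that passed between 0.54 and 1.38.

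Along the secretory pathway, 42 of 50 genes of ER translocation, N-glycosylation and COPI and COPII transport were higher, but 1 passed (2% of the list, against 1.97% of all features that rose). This was Stt3b, a catalytic subunit of the oligosaccharyltransferase (0.65 ± 0.17, adjusted p = 0.0471). Dad1, a subunit of the same enzyme (0.39, adjusted p = 0.0534), and Ssr2, of the translocon (0.48, adjusted p = 0.0561), had non-overlapping groups without passing. Of the 27 genes of the integrated stress response and amino acid supply 3 rose (11.1%): Nupr1, Stbd1 and Asns. That count was 0 without modIVIg array 2 or 4 or vehicle array 2 or 3, and 8 without IVIg array 3. Asns encodes asparagine synthetase and was at 10.10, 10.54, 10.65 and 9.97 with modIVIg and at 9.44, 9.26, 9.12 and 9.19 with vehicle (1.06 ± 0.27, adjusted p = 0.0418). A further Asns probe gave 0.89 without passing (adjusted p = 0.092). The serine synthesis gene Psat1 (0.85, adjusted p = 0.0847) and the asparaginyl-tRNA synthetase gene Nars (0.50, adjusted p = 0.0635) did not pass, and Sesn2, a stress-induced inhibitor of mTORC1 detected on 0 of 4 modIVIg arrays, was at −0.94 (adjusted p = 0.0824).

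Of 19 tubulin and other cytoskeletal genes 4 rose (21.1%, against 1.97% of all features) and 0 fell. They were the tubulin genes Tubb5, Tuba1b and Tuba1a and the tropomyosin gene Tpm1, and 2 to 6 passed when single arrays were left out, with 2 without modIVIg array 1, 3 or 4 or vehicle array 2 or 4. Tuba1b was at 12.55, 12.54, 12.64 and 12.68 with modIVIg, 11.92, 11.96, 12.49 and 11.70 with IVIg, and 11.68, 11.62, 11.62 and 11.62 with vehicle (0.97 ± 0.15, adjusted p = 0.00835). Tubb5 lay between 10.90 and 11.15 with modIVIg and was at 9.98, 9.62, 9.34 and 9.76 with vehicle (1.32 ± 0.24, adjusted p = 0.0142), and IVIg array 3 lay among the modIVIg arrays. The modIVIg and vehicle arrays did not overlap in either gene. Tpm1 rose by 1.13 ± 0.24 and Tuba1a by 0.76 ± 0.16. Tubulin isotypes are near-identical, and their probes may share transcript. Tubb4b (0.67, adjusted p = 0.051) and the lamin gene Lmna (0.94, adjusted p = 0.0657) did not pass.

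Genes regulated by p53 included the smallest adjusted p of the 112 called genes named here. Of 24 tested, 4 fell (16.7%, against 2.95% of all features) and 0 rose, with a median of −0.47. Between 3 and 6 passed when single arrays were left out. Plk2, a polo-like kinase induced by p53, was at 7.40, 7.75, 7.86 and 7.70 with modIVIg, 9.17, 9.33, 9.01 and 9.23 with IVIg, and 9.34, 9.25, 9.18 and 9.28 with vehicle. The modIVIg arrays lay together, more than 1 log2 unit under all 8 others, and the change against vehicle was −1.59 ± 0.13 (adjusted p = 0.000114). Mdm2, the ligase that degrades p53 and is its target, was at 9.97, 10.27, 10.27 and 10.04 with modIVIg and at 11.56, 11.52, 11.25 and 11.42 with vehicle (−1.30 ± 0.15, adjusted p = 0.00172). Here too the groups were far apart.

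Gtse1, which binds p53, fell by 1.85 ± 0.36, and Bbc3, which encodes the pro-apoptotic protein PUMA, fell by 1.09 ± 0.23. The p53 targets Ccng1 (−0.66, adjusted p = 0.0717) and Cdkn1a, the cell cycle inhibitor p21 (−0.60, adjusted p = 0.118), had non-overlapping groups and did not pass. With the authors' deposited values in place of the bead signals, the list's median was −0.28.

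Inflammatory mediators lay lower in most members, and few passed. Of 17 chemokines 0 passed in limma, the median was −0.38 and 13 were lower. Ccl2, which recruits monocytes, was at 7.95, 8.58, 9.48 and 8.81 with modIVIg and at 9.53, 10.36, 9.61 and 9.62 with vehicle (−1.07 ± 0.46, adjusted p = 0.173). Its modIVIg arrays were below the vehicle arrays by a narrow margin. Cxcl10, a chemokine induced by interferon, was at −0.61 (adjusted p = 0.628), and Ccl5 at −0.55 (adjusted p = 0.15).

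Of 20 cytokine genes and their feedback regulators 1 fell (5%, against 2.95% of all features). It was Csf1, the growth factor of macrophages, at 6.78, 7.23, 6.95 and 6.59 with modIVIg and 7.92, 8.01, 7.45 and 7.48 with vehicle (−0.83 ± 0.21, adjusted p = 0.0401). Between 0 and 3 of the 20 passed when single arrays were left out. Tnf was at 6.41, 5.44, 6.93 and 6.12 with modIVIg, 7.26, 7.44, 5.98 and 6.70 with IVIg, and 7.41, 7.06, 7.24 and 7.31 with vehicle (−1.03 ± 0.33, adjusted p = 0.0875). Tnf did not overlap between modIVIg and vehicle and did not pass. Il6 (−0.34, adjusted p = 0.653) and Il1b (−0.31, adjusted p = 0.474) overlapped.

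In the NF-kB and Toll-like receptor list 1 of 33 fell, a share of 3.03% against 2.95% of all features. Irak2, a kinase that sustains signalling from Toll-like receptors, was at 8.46, 9.02, 9.24 and 9.19 with modIVIg and at 9.66, 9.95, 9.97 and 9.63 with vehicle (−0.83 ± 0.20, adjusted p = 0.0374). The feedback inhibitors Nfkbia (−0.85, adjusted p = 0.175) and Tnfaip3 (−1.13, adjusted p = 0.201) had non-overlapping groups. Of 17 immediate early genes 0 passed, with a median of −0.47. On 8 of them the modIVIg arrays lay wholly below vehicle, a separation seen in 8.54% of all features. Zfp36, which destabilises cytokine mRNA, was at 10.44, 10.76, 10.44 and 10.40 with modIVIg and 12.04, 12.13, 11.78 and 11.50 with vehicle (−1.35 ± 0.36, adjusted p = 0.052), and Fos was at −1.40 ± 0.40 (adjusted p = 0.0604).

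IVIg array 3 was the lowest of all 12 arrays in the list means of these inflammatory genes. Its mean deviation was −1.30 for the immediate early genes, −1.23 for cytokines and −1.06 for the NF-kB list, against −0.58 to −0.40, −0.42 to −0.14 and −0.29 to −0.15 on the modIVIg arrays. The vehicle arrays lay between −0.16 and 0.14 in all 3 lists. This array widens the shared spread: without it 6 of the immediate early genes, 3 cytokine genes, 7 genes of the NF-kB list and 3 chemokines passed.

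**Figure D3:**
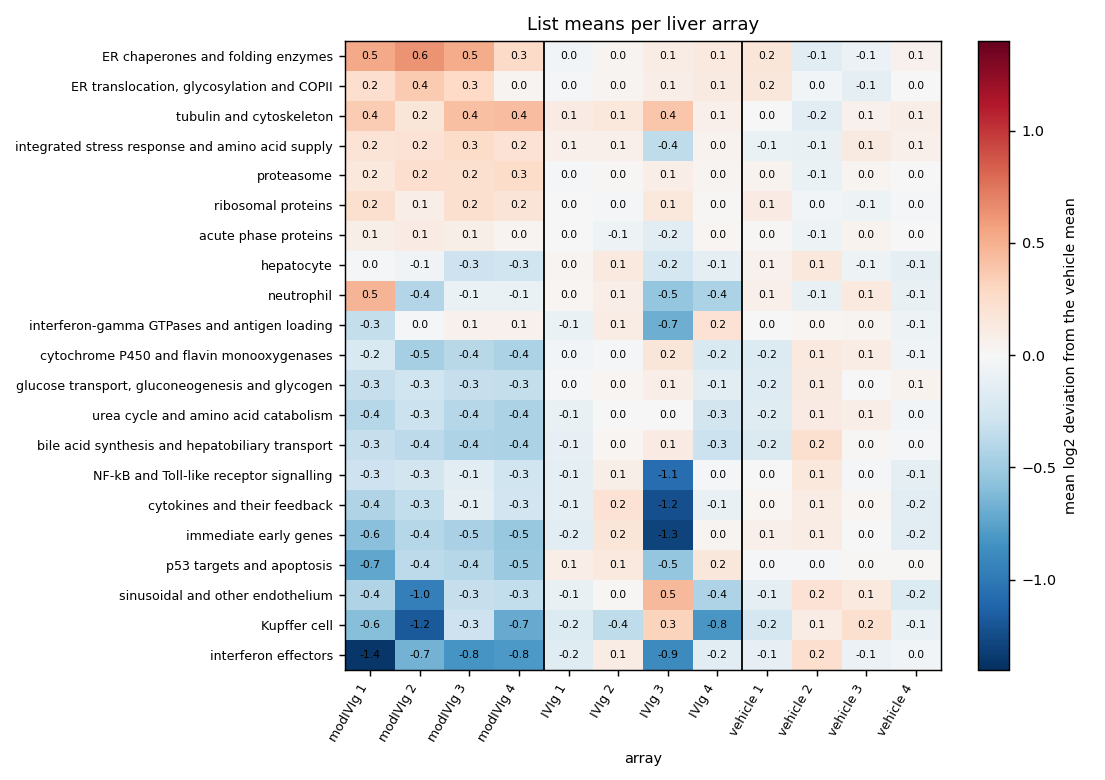
Mean log2 deviation from the vehicle mean of the tested members of 21 gene lists (rows) on each of the 12 liver arrays (columns), with modIVIg at the left, IVIg in the middle and vehicle at the right. The modIVIg columns run from 0.27 to 0.62 for ER chaperones and from −1.37 to −0.66 for interferon effectors, and IVIg array 3 departs from the other IVIg columns in the inflammatory lists.

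Acute phase proteins, the hepatocyte products that LPS induces through IL-6 and IL-1, had a median of 0.01 over 30 genes. Apcs, serum amyloid P and a major acute phase protein of mice, was the 1 member to pass. It was at 14.04, 13.89, 14.23 and 14.24 with modIVIg and at 13.36, 13.28, 13.61 and 13.60 with vehicle (0.64 ± 0.17, adjusted p = 0.048). Orm2, an orosomucoid, was at 15.33, 15.15, 15.15 and 15.19 with modIVIg and at 14.40, 13.77, 14.77 and 14.52 with vehicle without passing (0.84 ± 0.24, adjusted p = 0.0574). Both had higher signals on all modIVIg arrays. Saa2 (0.19, adjusted p = 0.659) and haptoglobin, Hp (−0.06, adjusted p = 0.747), overlapped, and Hp lay at 15.59 to 15.66 with modIVIg and 15.60 to 15.72 with vehicle, where the scale leaves little room for a difference. Of 22 complement genes 1 fell (C1qa, below), a share of 4.55% against 2.95% of all features. Of 22 coagulation genes 3 fell (13.6%): Klkb1, plasma prekallikrein (−1.15 ± 0.17, adjusted p = 0.00697), Serpind1, heparin cofactor II (−0.63 ± 0.15, adjusted p = 0.0379), and F8. With single arrays left out, the complement and coagulation counts lay between 0 and 2 and between 1 and 3.

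Of 12 Kupffer cell markers 5 fell (41.7%, against 2.95% of all features) and 0 rose, 10 were lower by any amount, and the median was −0.86, or −0.40 with the authors' deposited values, by which 3 of them fell. The count was 1 without modIVIg array 2 or 4 or vehicle array 2, 3 or 4, and 6 at most. Vsig4, a complement receptor of Kupffer cells, was at 6.24, 5.50, 6.32 and 5.54 with modIVIg and at 7.17, 8.42, 7.82 and 7.56 with vehicle (−1.84 ± 0.35, adjusted p = 0.0164), and 1 of 4 modIVIg arrays detected it. Clec4f, a lectin of mouse Kupffer cells, was at 7.92, 6.84, 7.87 and 7.26 with modIVIg and at 8.27, 8.57, 8.95 and 8.74 with vehicle (−1.16 ± 0.25, adjusted p = 0.0272). The groups did not overlap in either gene.

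Spic, the transcription factor of iron-recycling macrophages, fell by 1.23 ± 0.27. Timd4, a receptor for apoptotic cells on embryo-derived Kupffer cells, was detected on 0 of 4 modIVIg arrays at a mean of 5.84, against a mean of 6.71 with vehicle, and was at least 1.35-fold lower with modIVIg (adjusted p = 0.037). C1qa was also detected on 0 of 4 modIVIg arrays. Its means were 5.89 with modIVIg and 6.75 with vehicle, at least 1.39-fold lower with modIVIg (adjusted p = 0.025). Timd4 and C1qa would not have been kept without the vehicle arrays, where they are high. The partner genes C1qc (−0.81, adjusted p = 0.0543) and C1qb (−1.01, adjusted p = 0.124) did not pass.

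Not every macrophage gene was lower. Marco, a scavenger receptor, was at 8.73, 8.17, 10.04 and 8.86 with modIVIg and at 7.95, 8.14, 9.76 and 8.70 with vehicle (0.32, adjusted p = 0.739). The markers Cd5l, Folr2 and Cd163 were detected on 0 arrays. The mean deviation of the 12 markers was −0.60, −1.18, −0.29 and −0.71 on the modIVIg arrays, −0.19, −0.36, 0.31 and −0.82 on the IVIg arrays, and −0.24, 0.10, 0.23 and −0.09 on the vehicle arrays. The modIVIg arrays were below the vehicle arrays, and IVIg arrays 2 and 4 lay among the modIVIg arrays.

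Of 6 markers of monocyte-derived macrophages 0 passed and the median was 0.53, with Chil3 at 0.80 (adjusted p = 0.179) and the LPS co-receptor Cd14 at 0.55 (adjusted p = 0.48). Of 9 neutrophil markers 0 passed, with S100a8 at 0.28 (adjusted p = 0.544) and S100a9 at 0.39 (adjusted p = 0.315). All 5 MHC class II genes were lower and 0 passed, with H2-Ab1 at −0.68 (adjusted p = 0.0553) and the invariant chain Cd74 at −0.70 (adjusted p = 0.095). The part that cell type markers have in the changes of the other gene groups was not tested.

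In the list of Fc receptors and IgG handling genes 1 of 10 fell (10%, against 2.95% of all features). It was Fcna, ficolin A, which is not an Fc receptor but a lectin of liver macrophages that activates complement. Its signals were 9.30, 8.64, 9.35 and 9.02 with modIVIg and 9.83, 9.91, 10.12 and 9.60 with vehicle (−0.79 ± 0.18, adjusted p = 0.0341). The inhibitory receptor Fcgr2b (−0.30 ± 0.24, adjusted p = 0.468), the activating receptor Fcgr3 (−0.10 ± 0.22, adjusted p = 0.81) and the neonatal receptor Fcgrt, which recycles IgG (−0.25 ± 0.14, adjusted p = 0.298), overlapped between the groups.

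Of 15 endothelial markers 11 were lower by any amount and 4 were higher, by 0.19 at most. Of the 15, 5 fell (33.3%, against 2.95% of all features), 0 rose and the median was −0.49. The count was 1 with any 1 modIVIg array or vehicle array 2 left out, and the median was between −0.66 and −0.23 over all settings. Mrc1, the mannose receptor of sinusoidal endothelium and macrophages, was at 6.13, 5.69, 6.57 and 6.41 with modIVIg and at 7.42, 7.90, 7.68 and 7.27 with vehicle (−1.37 ± 0.20, adjusted p = 0.00697). Clec4g, a lectin of sinusoidal endothelium, was at 9.05, 8.49, 9.02 and 9.05 with modIVIg and at 9.95, 10.69, 10.35 and 10.06 with vehicle (−1.36 ± 0.30, adjusted p = 0.0295). Both were lower on every modIVIg array.

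F8, coagulation factor VIII, which the liver endothelium makes, was detected on 0 of 4 modIVIg arrays. It averaged 5.48 with modIVIg and 6.85 with vehicle and was at least 1.49-fold lower with modIVIg (adjusted p = 0.0297), and would not have been kept without the vehicle arrays. Dnase1l3 fell by 0.94 ± 0.25 and the VEGF receptor gene Flt1 by 0.69 ± 0.16. Stab2, a scavenger receptor of the same cells, was at −0.83 (adjusted p = 0.174). The 15 markers had a mean deviation of −0.42, −0.96, −0.33 and −0.34 on the modIVIg arrays and of −0.14, 0.20, 0.14 and −0.20 on the vehicle arrays. Modified IVIg array 2 was the lowest in both the Kupffer and the endothelial list. Among 5 red cell markers Slc4a1, the band 3 anion exchanger, was detected on 0 of 4 modIVIg arrays and was at least 2.34-fold lower with modIVIg (means 5.79 with modIVIg and 7.51 with vehicle, adjusted p = 0.0307). It too would not have been kept without the vehicle arrays.

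**Figure D4:**
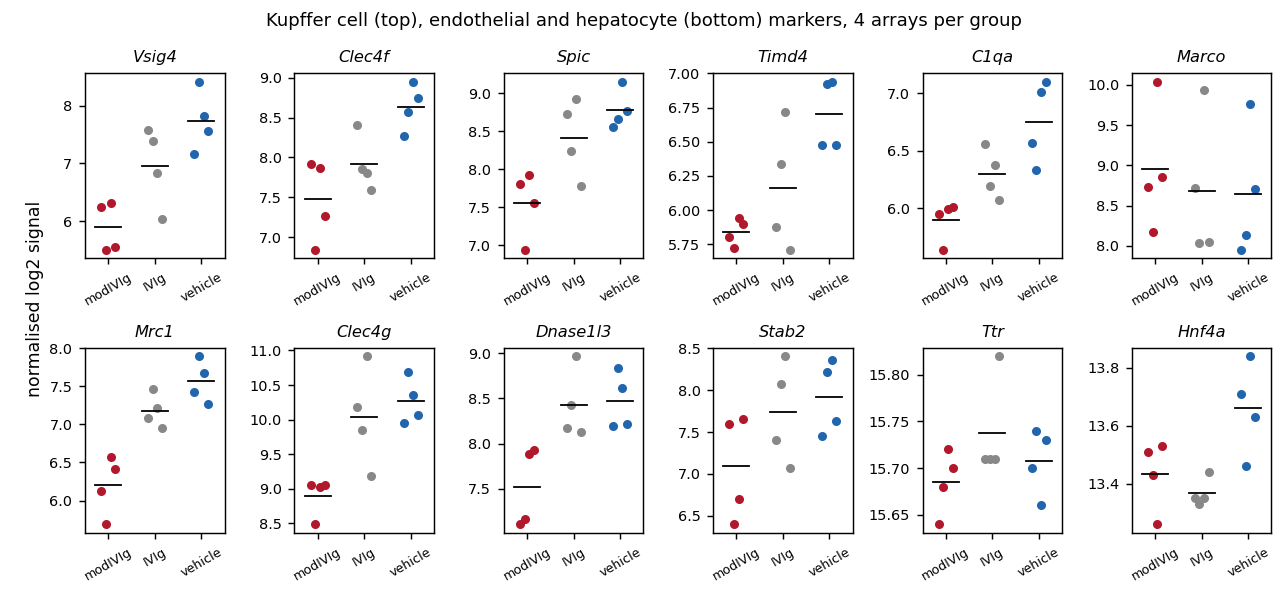
Normalised log2 signal of Kupffer cell markers (top), and of endothelial markers with the hepatocyte genes Ttr and Hnf4a (bottom), on the 4 liver arrays of each group (points) with the group mean (line); each panel has its own axis. Vsig4, Clec4f, Spic, Timd4, C1qa, Mrc1, Clec4g and Dnase1l3 are wholly lower with modIVIg, while Marco, Stab2, Ttr and Hnf4a overlap with vehicle.

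The hepatocyte identity markers had a median of −0.09 and 0 of 13 passed, with Hnf4a at −0.23 (adjusted p = 0.252) and Asgr2 at −0.63 (adjusted p = 0.0574). The probe for Alb was detected on 3 of 4 vehicle arrays and its signals of 6.25 to 7.25 with modIVIg and 6.38 to 7.82 with vehicle are close to background, so it gives no level of albumin. In glucose transport, gluconeogenesis and glycogen 8 of 27 genes fell and 1 rose (Stbd1), or 33.3% called against 4.92% of all features, with a median of −0.43, or −0.20 with the authors' deposited values. The count of 9 was 2 without modIVIg array 1 or vehicle array 2, and 12 without IVIg array 3. Gpd1, the cytosolic glycerol phosphate dehydrogenase, was at 6.25, 7.02, 6.53 and 6.35 with modIVIg and at 8.20, 8.61, 7.81 and 7.90 with vehicle (−1.59 ± 0.25, adjusted p = 0.00879). The groups were well apart.

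Pck1, the phosphoenolpyruvate carboxykinase that commits carbon to gluconeogenesis, was at 10.68, 10.87, 10.73 and 10.63 with modIVIg and at 10.95, 11.46, 11.49 and 11.72 with vehicle (−0.68 ± 0.16, adjusted p = 0.0374). The gap between the groups was narrow. Genes of glycogen turnover fell on both sides: Gys2, the liver glycogen synthase (−1.32 ± 0.34), Ugp2, which makes its substrate UDP-glucose (−0.71 ± 0.19), the glycogen-targeting phosphatase subunit Ppp1r3b (−0.97 ± 0.25) and Pygl, the liver glycogen phosphorylase (−0.78 ± 0.15). Tkfc, the triokinase of fructose breakdown, fell by 1.33 ± 0.26. G6pc, the catalytic subunit of glucose 6-phosphatase, was at −0.66 with wide groups (SE 0.60, adjusted p = 0.529), and Pdk4 at 1.14 did not pass (adjusted p = 0.0553).

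In amino acid catabolism and the urea cycle 7 of 45 fell (15.6%), 0 rose, 38 were lower by any amount and the median was −0.40. The count was 1 without modIVIg array 1 or vehicle array 3, and 13 without IVIg array 3. Kynu, kynureninase of the tryptophan pathway, was at 9.68, 10.04, 9.71 and 10.21 with modIVIg and at 10.99, 11.59, 11.17 and 10.97 with vehicle (−1.27 ± 0.22, adjusted p = 0.0118). Haao, a later enzyme of that pathway, fell by 0.70 ± 0.18. The others were the aspartate-glutamate carrier Slc25a13 (−1.32 ± 0.27), alanine aminotransferase Gpt (−0.94 ± 0.23), the tyrosine catabolism enzyme Hpd (−0.70 ± 0.15), glutamine synthetase Glul (−0.63 ± 0.15) and the glycine cleavage gene Gldc (−0.56 ± 0.14). Cps1, the entry enzyme of the urea cycle, had non-overlapping groups without passing (−0.53, adjusted p = 0.0687).

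Of 37 cytochrome P450 and flavin monooxygenase genes 7 fell (18.9%, against 2.95% of all features) and 0 rose, with a median of −0.33. The count was 0 without modIVIg array 3 or vehicle array 2, and 9 without IVIg array 3. Cyp1a2, a pericentral drug-metabolising enzyme, was at 11.68, 11.84, 11.81 and 11.90 with modIVIg and at 12.37, 12.41, 12.89 and 12.45 with vehicle (−0.72 ± 0.15, adjusted p = 0.0219). Fmo5 (−1.24 ± 0.28), Cyp4a31 (−1.22 ± 0.25), Cyp2a5 (−1.14 ± 0.27), Fmo1 (−0.75 ± 0.18) and Cyp4a12b (−0.61 ± 0.13) fell too. Cyp2c55 was detected on 0 of 4 modIVIg arrays and was at least 1.51-fold lower with modIVIg (means 5.85 with modIVIg and 6.87 with vehicle, adjusted p = 0.0398). Cyp2e1, among the brightest P450 genes, was at 15.33 to 15.49 with modIVIg and 15.49 to 15.62 with vehicle (−0.16, adjusted p = 0.427). A further Cyp2a5 probe gave −1.39 and passed without overlap (adjusted p = 0.049). Other probes for Cyp2a5 (−1.38, adjusted p = 0.0592, and −0.79, adjusted p = 0.151) and Fmo5 (−0.97, adjusted p = 0.123) overlapped between the groups and did not pass. Many of these families have close paralogs that a probe may not separate.

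Among 39 conjugation enzymes and NRF2 targets 3 fell (7.69%, against 2.95% of all features), and between 0 and 7 passed when single arrays were left out. Those that fell were the glutathione transferase genes Gstt2 (−0.61 ± 0.13), Gsta4 (−0.89 ± 0.23) and Gstm4 (−1.32 ± 0.34). The modIVIg and vehicle arrays of Gstm4 overlapped. Gstm1 (−0.60, adjusted p = 0.0596) and Srxn1, an NRF2 target (1.23, adjusted p = 0.0596), lay in opposite directions without passing. Of 23 genes of bile acid synthesis and hepatobiliary transport 4 fell (17.4%), and 3 to 7 passed when single arrays were left out. Abcb11, the bile salt export pump, was at 9.92, 9.90, 9.70 and 9.76 with modIVIg and at 10.68, 10.91, 10.82 and 10.36 with vehicle (−0.87 ± 0.14, adjusted p = 0.00835). The phospholipid flippase Abcb4 fell by 0.70 ± 0.13 and the transporter Abcc6 by 0.72 ± 0.16. Slc17a4, an organic anion transporter, was detected on 0 of 4 modIVIg arrays and on 2 of 4 vehicle arrays and was at least 1.30-fold lower with modIVIg (means 5.23 with modIVIg and 6.66 with vehicle, adjusted p = 0.0094).

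Few lipid genes passed. Bdh1, which makes the ketone body beta-hydroxybutyrate, was at 8.32, 8.95, 9.14 and 8.52 with modIVIg, 10.20, 10.36, 10.64 and 10.06 with IVIg, and 10.46, 10.23, 10.16 and 9.99 with vehicle (−1.48 ± 0.19, adjusted p = 0.00376). It was the 1 of 35 genes of fatty acid oxidation and ketone bodies to pass, a share of 2.86% against 2.95% of all features that fell. The desaturase gene Fads2 fell by 1.21 ± 0.24, while Gpat3, which starts glycerolipid synthesis, was detected on all 4 modIVIg arrays, 0 of 4 IVIg and 0 of 4 vehicle arrays, and so was kept only through the group where it is high. It was at least 1.08-fold higher with modIVIg (means 6.51 with modIVIg and 5.59 with vehicle, adjusted p = 0.0374). Acss2 (−1.57, adjusted p = 0.0577) and Lpin1 (−1.54, adjusted p = 0.0864) did not pass. Of 35 cholesterol and lipoprotein genes 0 passed, with Hmgcs1 at 0.31 (adjusted p = 0.596).

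Of 22 growth hormone responsive and male-biased genes 4 fell (18.2%, against 2.95% of all features): Keg1, Hsd3b5, Cyp4a12b and Ghr. That count was 1 with any 1 modIVIg array or vehicle array 2 left out. Ghr, the growth hormone receptor, was at 11.50, 11.88, 11.95 and 11.84 with modIVIg and at 12.52, 12.91, 12.25 and 12.34 with vehicle (−0.71 ± 0.18, adjusted p = 0.0414). A further Ghr probe, detected on all arrays, averaged 10.42 with modIVIg and 10.76 with vehicle, with overlapping groups, and did not pass (−0.34 ± 0.22, adjusted p = 0.377). In the list of clock genes and clock outputs 3 of 19 fell (15.8%, against 2.95% of all features), and 12 were lower by any amount. Those that fell were Upp2, Rgs16 and Noct, nocturnin, whose liver transcript is rhythmic (−1.03 ± 0.24, adjusted p = 0.0367). Between 1 and 4 members passed when single arrays were left out. Of the core clock, Nr1d1 was at −0.78 (adjusted p = 0.0927) and Arntl at −0.21 (adjusted p = 0.714), and the hour at which the livers were taken is not given.

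Both sides of the liver lobule were represented among the falls. Of 21 pericentral genes 5 fell (Alad, Cyp1a2, Fmo5, Cyp2a5 and Glul) and of 25 periportal genes 2 fell (Cdh1 and Pck1), with medians of −0.38 and −0.39. The shares were 23.8% and 8%, against 2.95% of all features. The pericentral count was 0 without modIVIg array 1 or 3. Cdh1, E-cadherin, was at 8.84, 8.58, 8.56 and 8.66 with modIVIg and at 9.77, 9.90, 9.92 and 10.06 with vehicle (−1.25 ± 0.17, adjusted p = 0.00441). Its groups were well apart.

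In iron, haem and metal handling 3 of 30 genes fell and 1, Slc30a1, rose (13.3% called, against 4.92% of all features). Between 0 and 5 of the 30 passed when single arrays were left out. Alad, an early enzyme of haem synthesis, was at 11.35, 11.31, 11.35 and 11.44 with modIVIg and at 12.11, 12.17, 12.12 and 12.04 with vehicle (−0.75 ± 0.15, adjusted p = 0.0203). The iron transporter Slc11a2 fell by 1.50 ± 0.39 and Aco1, the iron-regulatory protein IRP1, by 0.61 ± 0.16. Of 10 prostaglandin and leukotriene handling genes 2 fell (20%, against 2.95% of all features). They were Hpgd and the prostaglandin transporter gene Slco2a1 (−1.14 ± 0.29), which works upstream of it. Of 18 pyrimidine and purine genes 3 fell (16.7%), among them Upp2 and the catabolism gene Upb1 (−0.56 ± 0.14). With single arrays left out, these counts lay between 0 and 2 and between 1 and 5. The HSP90 cochaperone gene Fkbp4 (−1.37 ± 0.25) was the 1 of 18 cytosolic heat shock genes to fall (5.56%). Of 18 hypoxia and glycolysis genes 1 rose and 1 fell (11.1% called, against 4.92% of all features). Ndrg1, a hypoxia- and stress-induced gene, rose by 1.23 ± 0.29 (adjusted p = 0.037), and the fall was that of Adm. Between 0 and 4 of the 18 passed when single arrays were left out.

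**Figure D5:**
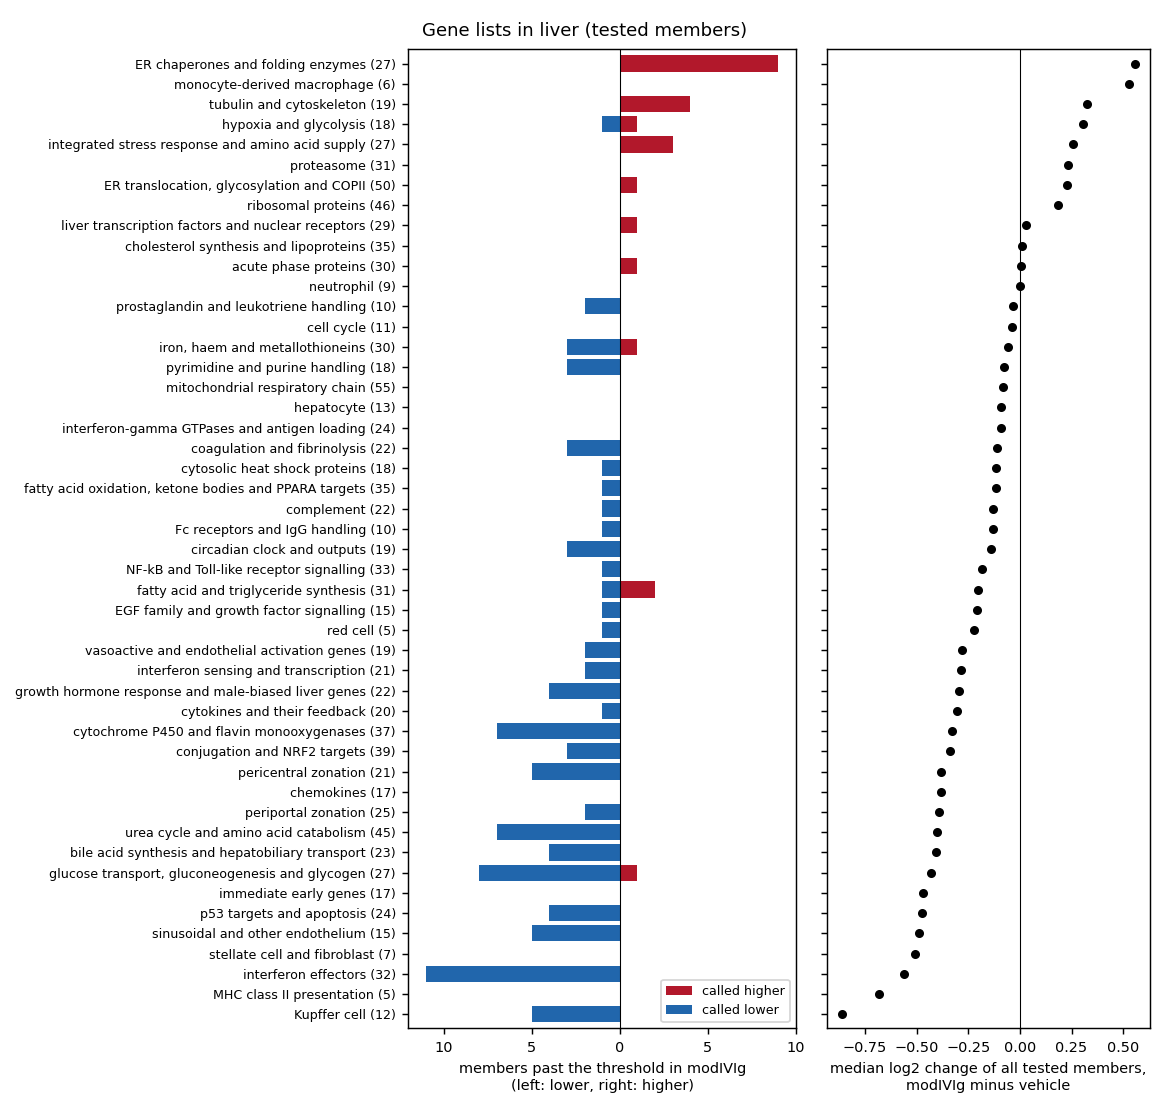
For each gene list with at least 5 tested members (number in brackets), the left panel counts the members that passed in modIVIg livers, lower to the left and higher to the right, and the right panel gives the median log2 change of all tested members, modIVIg minus vehicle. Interferon effectors have the most members lower (11 of 32) and ER chaperones the most higher (9 of 27).

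Housekeeping machinery shifted little per gene. Of 46 ribosomal protein genes 44 were higher with a median of 0.18, and of 31 proteasome genes 29 were higher with a median of 0.23, but 0 of either passed in limma. Scaling to the 75th percentile gave medians of 0.00 and 0.10 for these lists, so the height of the ribosomal shift depends on the scaling. Of 55 respiratory chain genes 0 passed, with a median of −0.08.

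The same fit also set modIVIg against IVIg and IVIg against vehicle. These comparisons share the modIVIg or the vehicle arrays with the main one, so their values are given side by side and are not independent of it. Between modIVIg and IVIg 78 features passed (1.09%), and 72 of them are among the 352. Between IVIg and vehicle 0 passed in limma, while 128 had an unadjusted p under 0.05. Of the 352 features the IVIg mean lay between the modIVIg and the vehicle mean in 305. These features were chosen for a gap between those means, which favours an IVIg mean between them. The share over all features was not computed, so the count does not measure an effect of IVIg.

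For Plk2 the log2 change was −1.51 between modIVIg and IVIg (adjusted p = 0.000204) and −0.08 between IVIg and vehicle. Bdh1 had −1.58 (adjusted p = 0.00556) and 0.10, Mdm2 −1.12 (adjusted p = 0.00771) and −0.18, and Rnf138rt1 1.93 (adjusted p = 0.00556) and 0.19. In these genes the IVIg mean was close to the vehicle mean. For Rsad2 the values were −1.79 (adjusted p = 0.168) and −0.83, and for Adm −1.25 (adjusted p = 0.339) and −1.31. In both of these genes IVIg array 3, which stood apart from its group, was the lowest IVIg array and lowers the IVIg mean. Among the folding genes Pdia4 had 1.24 (adjusted p = 0.025) and 0.09, and Creld2 1.07 (adjusted p = 0.056) and 0.31.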

How the data were processed

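Liver RNA of LPS-treated mice was measured on 12 arrays (Illumina mouse BeadChips), 4 each for modIVIg, IVIg and vehicle, grouped by the labels. The deposited bead table holds signal intensity per probe without normalisation between arrays, and a detection p-value per probe, per the file headers. The authors' deposited log2 values had been normalised within each organ, per the labels, and ordered the probes as the bead signals do on all 12 arrays. GenomeStudio 1.9.0, limma and lumi are named in the submitters' processing notes without their roles. 8 further signal columns of the bead table were not used.

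Bead intensities were corrected and quantile normalised with neqc (limma 3.58.1 in R 4.3.3, offset 16, negative controls inferred from the detection p), over the liver arrays alone. Probes with a detection p under 0.01 on at least 4 arrays were kept, and the probe with the highest mean stood for its gene. The platform annotation gave 1 gene symbol to 23978 probes, several to 0 and none to 1719, and current Entrez entries were found for 23962. One linear model over the 3 groups was fitted with lmFit and eBayes, with Benjamini-Hochberg adjustment over all 7155 features. Code was tested on simulated data.

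The comparison, the gene lists and the tests were chosen with earlier results of these data known. Named genes are the 15 largest falls and rises among called genes and the called members of each list. Genes that were not called were either among the 4 smallest p of a list or picked for their textbook role after their values were seen. Promoters came from the RefSeq table for GRCm38.p6, which held 5450 of the 6623 tested genes, and overlapping matches were counted. The alternatives were other background corrections, scalings, detection filters, probe rules, variance priors, array weights, arrays in the fit, a replicate block and each array left out. Same-numbered modIVIg and vehicle arrays deviated together with correlations of 0.146, 0.265, −0.13 and 0.196, and the labels give no pairing, so arrays were not paired.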

Additional observations from a re-analysis of the deposited data

Results flagged for a closer look

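For each of the 173 genes given by name, each group of 4 arrays was searched for an array far from the other 3 by a Dixon test. Of 519 gene and group combinations 33 had one, and chance gives about 1 in 20. The values below are normalised log2 signals of the array that stood apart.

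On modIVIg array 1 these were Cyp2e1 (15.49) and Ifit2 (10.35). On modIVIg array 2 these were C1qa (5.64), Clec4g (8.49), Pdia3 (13.83) and Zfp36 (10.76). On modIVIg array 3 it was Adm (7.20). On modIVIg array 4 it was Slc17a4 (5.91).

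On IVIg array 2 it was Ugp2 (9.62). On IVIg array 3 these were Fcgrt (11.34), Glul (10.36), Nupr1 (7.32), Pdia4 (11.92), Trim30a (11.43) and Tubb5 (11). On IVIg array 4 these were Cd74 (9.29), F8 (6.24), Manf (6.53), Tceal9 (10.49) and Ttr (15.82).

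On vehicle array 1 these were H2-Ab1 (8.88) and Tuba1b (11.68). On vehicle array 2 these were Ccl2 (10.36), Cmpk2 (13.96), Cyp4a12b (12.83), Fmo1 (11.51), Gm4952 (9.40), Oasl1 (13.78), Tubb4b (11.35) and Usp18 (15.04). On vehicle array 3 these were Cyp1a2 (12.89) and Hp (15.60). On vehicle array 4 it was Nupr1 (8.36). Vehicle array 2 was the array that stood apart in 8 combinations and IVIg array 3 in 6.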

How the results depend on the processing

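Against 352 features called, no detection filter gave 187, the modIVIg and vehicle arrays alone gave 819, array quality weights gave 1112, and the replicate number as a block gave 540. The block rests on a number that arrays share and is no pairing; the cause of the other moves was not tested. Leaving out 1 array gave between 84 and 812 calls: 84, 151, 109 and 129 without modIVIg arrays 1 to 4, 239, 456, 812 and 288 without IVIg arrays 1 to 4, and 301, 84, 142 and 150 without vehicle arrays 1 to 4. The other 10 settings that left out no array gave 319 to 441. All 112 called genes given by name kept their direction in each setting that tested them. Of these, 91 were tested in all 26 settings, and 21 were untested where detection on all 12 arrays was required. In every setting that tested them 26 passed (22 of them tested in all), among them 2 of the 11 interferon effectors and 2 of the 9 ER chaperones. Of the 61 genes given by name that were not called, 4 turned their sign in a setting: Hp to 0.11 with the mean of its kept probes, Marco to −0.047 without modIVIg array 3 (and 0.69 without vehicle array 3), Ttr to 0.041 with the authors' deposited values, and Xbp1 to −0.10 with scaling to the 75th percentile. Of the called features 288 were detected on all 8 modIVIg and vehicle arrays, 18 on no modIVIg array and 12 on no vehicle array, and the size of these last changes is limited by signal over background.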
